A study of Mus musculus with 4 samples.

Results

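The 10 genes described here encode transcription factors that direct the secretory lineage of the intestinal epithelium or hold its general identity. They are Sox9, Atoh1, Gfi1, Spdef, Bhlha15, Cdx1, Cdx2, Hnf4a, Klf4 and Klf5, and every probe set that the platform annotation names with one of these symbols was taken. That gave 20 of the 45037 probe sets that were not controls. Of these 20, 14 were bright enough to test, at least 1 for each of the 10 genes, and 6 were too dim.

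The samples were Paneth cells, the antimicrobial secretory cells at the base of small intestinal crypts, cut from mouse tissue by laser capture. They were profiled on 1-colour arrays, with 2 arrays from the Atg16-hypomorph and 2 arrays from wildtype mice, both on a mixed C57BL/6 and 129ola strain background. A hypomorph allele leaves a gene with reduced function, and Atg16l1 is needed to build autophagosomes. Age, the number of animals, the cells that carry the reduced function and how the captured cells were chosen are not stated in the sources used here.

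The intestinal epithelium renews from crypt stem cells whose daughters choose between absorptive and secretory fates. Atoh1, which is held down by Notch signalling, starts the secretory choice. Gfi1 keeps secretory precursors from becoming enteroendocrine cells, Spdef and Klf4 act in goblet cell maturation, Sox9 is required for Paneth cells to form, and Bhlha15, also called Mist1, builds the secretory apparatus of exocrine cells. Cdx1, Cdx2 and Hnf4a are expressed across the epithelium and maintain intestinal identity, and Klf5 is found in dividing crypt cells.

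The deposited values are linear intensities, 1 for each probe set on each array, and the median intensity of an array lay between 47.4 and 49.6. The altered gene, Atg16l1, read 966 and 995 in hypomorph against 1335 and 1183 in wildtype (log2 difference -0.35, limma, adjusted p = 0.102), so this check of the labels did not pass the threshold. The groups also differed in Xist, a noncoding RNA that coats the silent X chromosome in females, at 4414 and 4510 in hypomorph against 18.0 and 25.6 in wildtype. Markers of other cells were counted by the brightest probe set of each gene (limma, adjusted p under 0.05). Over all genes, 2.53% were called higher and 1.70% lower in hypomorph. Fat cell markers were higher in hypomorph in all 8 of the 8 tested (12 listed, 10 with a probe set annotated to 1 symbol alone). Their list had a summed intensity of 29900 to 30510 in hypomorph and 9768 to 9860 in wildtype, while Retn and Lipe were too dim to test. Cidec measured 16.9 and 37.9 in wildtype and Lep 50.6 and 41.6, and both were bright enough to test only through their hypomorph arrays. A stricter filter on brightness left both untested. Of 10 fibroblast and muscle markers 4 were higher in hypomorph, such as Col1a1 (0.86). Of 9 tested immune markers 2 were higher, Gzmb (1.40) and Gzma (0.74). No marker of these lists was called lower, but Acta2 (-0.19), Tagln (-0.22), Ptprc (-0.26) and Cd79a (-0.49) were lower on both hypomorph arrays. Summed intensities were 30440 and 31650 in hypomorph against 27510 and 28540 in wildtype for the fibroblast and muscle list. For the immune list they were 18320 and 18670 against 17330 and 17610. Xist split the 4 arrays as the genotype labels do, so sex and genotype cannot be told apart in the results below. The part of other cells in them was not tested. In samples of many cells, fewer cells of a type and less RNA per cell cannot be told apart.

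No factor of the 10 passed the test between hypomorph and wildtype Paneth cells. None of the 14 tested probe sets passed the threshold (limma, adjusted p under 0.05), in either direction, where 3.71% of all 22519 tested probe sets did (2.04% higher and 1.67% lower in hypomorph). The lowest adjusted p among them was 0.0964, for Bhlha15. With no adjustment, 6 probe sets of 5 genes had a p under 0.05, 4 higher and 2 lower in hypomorph, and 20.5% of all tested probe sets had one. Each difference is the hypomorph mean minus the wildtype mean of log2(intensity + 32), in which the added constant shrinks changes of dim genes. No 95% interval of a difference reached 1, which is a 2-fold change on that scale. The most extreme bounds were -0.81, for Spdef, and 0.79, for the dimmest tested probe set of Hnf4a.

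The median size of the difference was 0.18 for the 14 tested probe sets of the factors and 0.16 for all tested probe sets. Over all 20 probe sets, dim ones included, it was 0.18, against 0.14 for all probe sets on the array. The signed medians were -0.04 and -0.03. The arrays of the groups did not overlap for 13 of the 14 probe sets, with 6 higher and 7 lower in hypomorph. Over all tested probe sets this share was 51.8%, with 21.8% higher and 29.9% lower. With 2 arrays a group, an exact two-sided permutation test cannot give a p below 0.333, so non-overlap alone is not a test. The labels do not say whether the 2 arrays of a group hold different animals, and the p-values therefore reflect the spread of these samples alone, which may be technical.

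**Figure D1:**
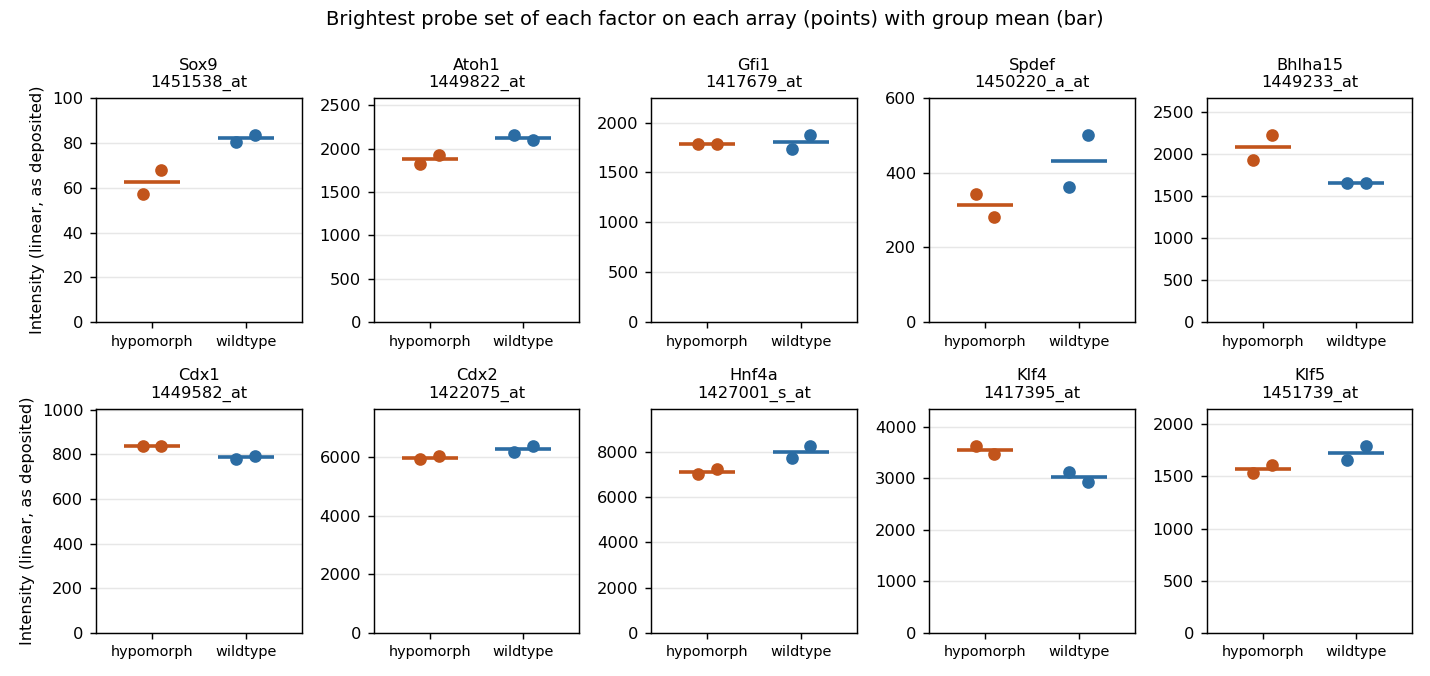
Deposited linear intensity of the brightest probe set of each factor (vertical axes, from 0) on the 2 hypomorph arrays (left in each panel) and the 2 wildtype arrays (right), with bars at the group means. The groups overlap in the panel of Gfi1 and are separate, by small margins, in the other panels.

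Among the factors of secretory commitment, Atoh1 on chromosome 6 was read by 1 probe set. Its probe set 1449822_at measured 1827 and 1929 in hypomorph, against 2152 and 2096 in wildtype. Both hypomorph arrays were below both wildtype arrays, with a log2 difference of -0.18 (SE 0.08, interval -0.36 to 0.01), which did not pass (limma, adjusted p = 0.268). Gfi1, a zinc finger repressor encoded on chromosome 5 that acts downstream of Atoh1, measured 1786 and 1783 in hypomorph and 1734 and 1873 in wildtype. The hypomorph arrays lay between the wildtype arrays. The difference of Gfi1 was -0.01 (SE 0.09), with an interval from -0.21 to 0.18.

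Spdef, an Ets family factor on chromosome 17 that drives goblet and Paneth cell maturation, had the lowest difference of the 14. Its probe set 1450220_a_at measured 344 and 281 in hypomorph and 361 and 500 in wildtype, or 313 ± 44.8 against 431 ± 98.7 (SD, n = 2 each). The groups were separate only because the lower wildtype array lay just above the higher hypomorph array. The log2 difference was -0.42 (SE 0.18, interval -0.81 to -0.02, limma, adjusted p = 0.219). One wildtype array set much of its size, since it was -0.20 without wildtype replicate 2, -0.28 without hypomorph replicate 2, -0.55 without hypomorph replicate 1 and -0.63 without wildtype replicate 1.

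Sox9, the HMG box factor on chromosome 11 that Paneth cells need, was dim on all 4 arrays. Its brightest probe set, 1451538_at, measured 57.5 and 68.1 in hypomorph and 80.7 and 83.5 in wildtype, close to the level of 47.7 below which probe sets were left out. The log2 difference was -0.27 (SE 0.17, interval -0.64 to 0.10, limma, adjusted p = 0.391). Of the untested probe sets, 1424950_at measured 39.4 and 19.0 in hypomorph against 55.5 and 49.0 in wildtype, and 1433889_at 5.01 and 6.45 against 11.3 and 12.1. All 3 probe sets were lower on both hypomorph arrays, but they target 1 gene on the same arrays and are not independent. Sox9 is a known Paneth cell factor, and these probe sets gave little signal for it in either group.

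Bhlha15 on chromosome 5 had the smallest p of the 10 genes. Its probe set 1449233_at measured 1931 and 2219 in hypomorph, against 1658 and 1650 in wildtype. The wildtype arrays were nearly equal, and both hypomorph arrays lay above them, 1.25-fold on the log2(intensity + 32) scale (log2 difference 0.32, SE 0.09, interval 0.11 to 0.53). It did not pass (limma, unadjusted p = 0.00708, adjusted p = 0.0964). The difference was 0.22 without hypomorph replicate 2 and 0.42 without hypomorph replicate 1. A second probe set, 1418800_at, was too dim to test, at 55.7 and 43.9 in hypomorph and 44.2 and 42.8 in wildtype. Genes reported as targets of Bhlha15 in exocrine cells were set beside it. Of 5 such genes 3 were tested and none passed, with a median difference of -0.01 (genes by their brightest probe set, of which 4.23% of 11577 were called over the whole table). Rab3d, a GTPase of secretory granules, measured 1827 and 2048 in hypomorph and 1694 and 1879 in wildtype. Copz2, a coat protein subunit, had a difference of -0.02 and Atp2c2, a calcium pump of the secretory pathway, of -0.01.

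Because Bhlha15 had the smallest p, the 250 bases before its RefSeq start are shown (build GRCm38.p6, chr5:144190036-144190285, plus strand). Capitals mark the motif CANNTG, the E-box that basic helix-loop-helix proteins such as Atoh1 and Bhlha15 bind in pairs, which reads the same class of sequence on both strands. The window holds it 3 times, and 66.2% of 32851 windows of this length in the table hold it at least once.

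Bhlha15: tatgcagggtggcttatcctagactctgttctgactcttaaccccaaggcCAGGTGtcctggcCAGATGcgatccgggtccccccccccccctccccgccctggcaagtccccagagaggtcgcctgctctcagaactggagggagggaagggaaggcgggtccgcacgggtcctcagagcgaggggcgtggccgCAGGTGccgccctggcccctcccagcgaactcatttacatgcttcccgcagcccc

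Klf4, a zinc finger factor on chromosome 4 of goblet cells and of cells leaving the cycle, had the same direction on its 2 probe sets. The brighter, 1417395_at, measured 3622 and 3463 in hypomorph and 3122 and 2930 in wildtype, a log2 difference of 0.23 (SE 0.07, interval 0.06 to 0.39, limma, adjusted p = 0.123). The dimmer, 1417394_at, measured 2295 and 2441 in hypomorph and 1989 and 2194 in wildtype, a difference of 0.18 (limma, adjusted p = 0.28). In both, the 2 hypomorph arrays were the higher ones, and neither passed the threshold.

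Klf5 on chromosome 14 gave opposite signs from its bright probe sets. The brightest, 1451739_at, measured 1536 and 1613 in hypomorph and 1653 and 1792 in wildtype (log2 difference -0.13, SE 0.09, limma, adjusted p = 0.467). The other, 1451021_a_at, measured 743 and 826 in hypomorph and 649 and 641 in wildtype (0.27, SE 0.12, limma, adjusted p = 0.225). The groups were separate for each, in opposite directions, so the gene has no single direction in these data. As a share of 1451739_at on the same array, 1451021_a_at was at 48.4% and 51.2% in hypomorph and at 39.2% and 35.8% in wildtype. The remaining probe set, 1430255_at, lay near the floor, between 3.47 and 11.8 on all arrays.

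**Figure D2:**
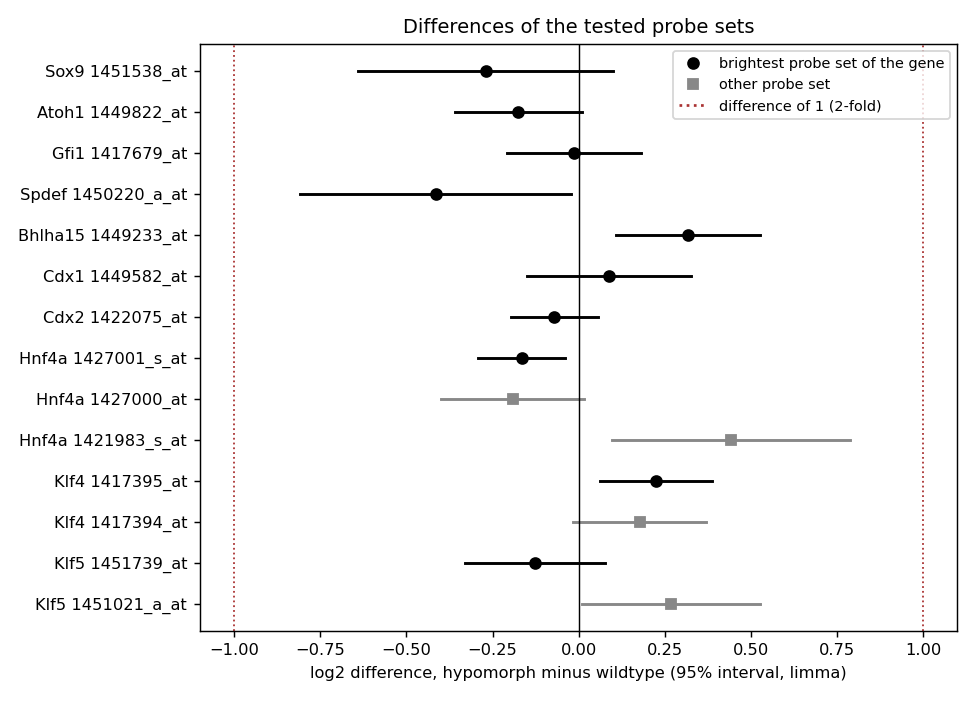
Log2 difference, hypomorph minus wildtype, of the 14 tested probe sets (points) with the 95% interval from limma (lines) on the horizontal axis. Every interval stays inside the dotted lines at a 2-fold change, and 8 of the 14 include 0.

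Cdx1 and Cdx2, homeobox factors of intestinal identity, had the smallest differences beside Gfi1. Cdx2 on chromosome 5, read by 1422075_at, measured 5922 and 6036 in hypomorph and 6177 and 6382 in wildtype. The difference was -0.07 (SE 0.06), and its interval of -0.20 to 0.06 was the narrowest together with that of the brightest Hnf4a probe set. Cdx1 on chromosome 18, read by 1449582_at, measured 838 and 837 in hypomorph and 780 and 793 in wildtype, a difference of 0.09 (SE 0.11, interval -0.15 to 0.33). The arrays of each pair were close, and the groups differed 1.06-fold for Cdx1 and 0.952-fold for Cdx2 on the log2(intensity + 32) scale. Neither passed (limma, adjusted p = 0.522 for Cdx2 and 0.692 for Cdx1). The second Cdx2 probe set, 1422074_at, was near the floor, with values from 1.00 to 3.64.

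Hnf4a, a nuclear receptor encoded on chromosome 2, was read by 4 probe sets that did not move as 1. The brightest, 1427001_s_at, measured 7014 and 7232 in hypomorph and 7725 and 8257 in wildtype (log2 difference -0.16, SE 0.06, interval -0.29 to -0.04, limma, adjusted p = 0.143). The probe set 1427000_at lay on the same side, at 1581 and 1559 in hypomorph and 1699 and 1901 in wildtype (-0.19, limma, adjusted p = 0.278). The dimmer 1421983_s_at lay on the other side, at 207 and 228 in hypomorph against 146 and 157 in wildtype, with the highest difference of the 14 (0.44, SE 0.15, interval 0.10 to 0.79, limma, adjusted p = 0.147). None of the 3 passed. The share of 1421983_s_at in the intensity of 1427001_s_at on the same array was 2.96% and 3.15% in hypomorph and 1.89% and 1.90% in wildtype, while that of 1427000_at was between 21.6% and 23.0% on all 4 arrays. Probe sets differ in brightness for a given amount of RNA, so these shares describe unequal movement and not transcript shares. The last probe set, 1450447_at, was too dim to test, between 9.63 and 26.3.

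**Figure D3:**
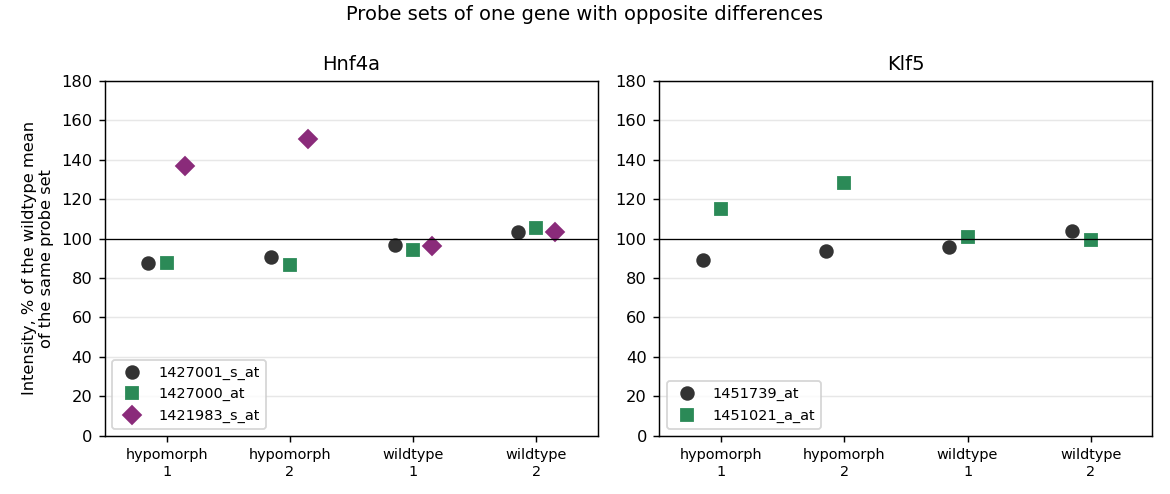
Intensity as a percentage of the wildtype mean of the same probe set (vertical axis) on each of the 4 arrays (horizontal axis), for the 3 bright probe sets of Hnf4a (left) and the 2 of Klf5 (right). The Hnf4a probe set 1421983_s_at stands at 136.7% and 150.5% on the hypomorph arrays, where the other 2 stand between 86.6% and 90.5%, and Klf5 1451021_a_at stands at 115.2% and 128.1%, where 1451739_at stands at 89.2% and 93.6%.

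The RefSeq table lists 2 starts for Hnf4a, which is known to be transcribed from 2 promoters whose products differ at the amino terminus. The 250 bases before each start are shown for that reason (build GRCm38.p6, plus strand), the upstream one at chr2:163506607-163506856 and the downstream one at chr2:163546905-163547154. Capitals again mark CANNTG, found once in the upstream window and 2 times in the downstream one. The motif CACCC, counted on both strands and of the kind that Klf factors bind, occurs 3 and 5 times in these windows, and 52.0% of all windows hold it. Which of the transcripts each probe set reads is not stated in the sources used here, so the opposite signs above were not tied to a promoter.

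Hnf4a upstream: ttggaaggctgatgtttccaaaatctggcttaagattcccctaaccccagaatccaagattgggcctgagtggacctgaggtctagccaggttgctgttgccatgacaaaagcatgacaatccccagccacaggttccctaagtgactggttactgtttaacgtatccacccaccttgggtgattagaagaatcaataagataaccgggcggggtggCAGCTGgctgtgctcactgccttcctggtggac
Hnf4a downstream: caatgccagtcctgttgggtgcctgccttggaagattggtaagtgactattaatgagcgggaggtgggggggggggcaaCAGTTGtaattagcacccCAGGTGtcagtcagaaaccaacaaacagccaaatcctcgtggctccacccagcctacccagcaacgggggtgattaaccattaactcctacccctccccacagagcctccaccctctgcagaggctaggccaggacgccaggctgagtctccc

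Windows on chromosome 18, which holds Cdx1, were left out of the counts for the factors but not of the shares over all windows. Elsewhere, windows were found for 7 of the 10 genes, 9 in all with the second starts of Hnf4a and Gfi1. Of these 9, 7 held CANNTG and 6 held CACCC on either strand. The window of Atoh1 held no CANNTG, and that of Spdef held neither motif. These counts describe letters in short windows and not binding sites.

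A list of reported Hnf4a targets, which was drawn up with earlier results of these data known, held 5 called genes. Of 7 listed, 6 were tested, 4 rose and 1 fell, with a median log2 difference of 0.89, where 2.53% of all genes rose and 1.70% fell. Apoa4, an apolipoprotein of chylomicrons, measured 1813 and 1861 in hypomorph and 390 and 451 in wildtype, and rose by 2.05 (SE 0.11, limma, adjusted p = 8.29e-06). Mttp, which loads lipid onto apolipoprotein B, rose by 1.35, Apob by 0.93 and Apoa1 by 0.85. Ttr, the transport protein for thyroid hormone, fell by 0.82, at 751 and 708 in hypomorph against 1356 and 1269 in wildtype, and it is named here after its values were seen. These 5 calls held in each of 13 other settings of the fit. Apoa1, Apoa4 and Mttp also stand on the list of enterocyte markers, of which 7 of 13 tested rose and none fell (17 listed, 15 with a probe set of 1 symbol). The summed intensity of those 15 markers was 41100 and 43020 in hypomorph and 32880 and 33480 in wildtype, and Anpep and Rbp2 were at or below 50.7 throughout. The part of enterocyte RNA in the target values was not tested.

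Reported targets of Cdx2 gave a mixed result. Of 7 listed, 6 were tested, 2 rose and none fell, where 2.53% of all genes rose and 1.70% fell. The median difference was 0.26, against -0.02 over all genes. Lct, the lactase of the brush border, measured 121 and 117 in hypomorph and 36.5 and 37.9 in wildtype, and rose by 1.13 (SE 0.16, limma, adjusted p = 0.00446). Both wildtype values lay under the filter level of 47.7, so Lct was tested only through its hypomorph arrays. The stricter filter left Lct untested. Mep1a, a brush border protease, rose by 0.36 (limma, adjusted p = 0.0326), a call that was lost when hypomorph replicate 2 or either wildtype array was absent (0.28 to 0.40), with no filter (adjusted p = 0.123) and with no intensity trend (0.177). Both are enterocyte markers too. Slc15a1, a peptide transporter, had a difference of 0.49 and the mucin gene Muc2 of -0.18, and neither passed (limma, adjusted p = 0.155 and 0.114). Cdh17, an intestinal cadherin that is a classical Cdx2 target, measured 6733 and 7227 in hypomorph and 7228 and 7309 in wildtype.

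The other factors of the secretory lineage were likewise not called. Of 23 listed, 17 were tested and none passed in either direction, where 4.23% of all genes did. The median difference of these 17 was -0.24, against -0.02 over all genes. The 4 with the smallest p were Ascl2, a stem cell factor, at -0.32, the enteroendocrine factor Isl1 at -0.49, Creb3l1, a membrane-bound factor of secretory cells, at -0.40, and Foxa2, a pioneer factor, at -0.36 (limma, adjusted p from 0.125 to 0.175). Foxa2 measured 384 and 331 in hypomorph and 484 and 453 in wildtype. Xbp1, which expands the endoplasmic reticulum of secretory cells, measured 7222 and 7502 in hypomorph and 6988 and 6599 in wildtype and did not pass. Hes1, the Notch target that represses Atoh1, measured 104 and 86.7 in hypomorph and 120 and 117 in wildtype. Enteroendocrine markers, to which several of these factors belong by role, fell in 4 of 11 tested cases (summed intensity 11020 and 11420 in hypomorph, 14850 and 13770 in wildtype), and stem cell markers in 2 of 8, where 1.70% of all genes fell. All 6 of these calls were lost with no filter on dim probe sets (limma, adjusted p from 0.0519 to 0.12).

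Among 15 other factors of intestinal identity 11 were tested and 1 rose, where 2.53% of all genes rose. Maf, a leucine zipper factor of mature enterocytes, measured 1433 and 1298 in hypomorph and 856 and 917 in wildtype (log2 difference 0.60, SE 0.10, limma, adjusted p = 0.0131). Its call was lost without hypomorph replicate 1 (0.53, adjusted p = 0.0554), with no filter (0.0562) and with no intensity trend (0.0806), and its other probe sets gave differences from -0.27 to 0.37, none of which passed. Elf3 and Isx, epithelial factors of differentiation, were at 0.34 and 0.25 and did not pass. Hnf4g, the closest relative of Hnf4a, measured 565 and 570 in hypomorph and 595 and 768 in wildtype.

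Relatives of Klf4, Klf5 and Sox9 were set beside them. Of 14 other Krüppel-like genes with a probe set of 1 symbol, 11 were tested and none passed, where 4.23% of all genes did. The median difference of these 11 was -0.04. Klf9, a factor induced by glucocorticoids, had the smallest p of these by the brightest probe set. It measured 9117 and 9617 in hypomorph and 10420 and 10062 in wildtype (-0.13, limma, adjusted p = 0.195). Its 2 other tested probe sets gave -0.27 and -0.25, with lower p-values, and did not pass either (limma, adjusted p = 0.0996 and 0.0639). Over all genes 1.70% fell, and of 18 other Sox genes, of which 11 were tested, 1 fell. This was Sox14, known from neurons, at 3361 and 3560 in hypomorph against 6193 and 4401 in wildtype (-0.59, SE 0.13, limma, adjusted p = 0.0372). The wildtype arrays of Sox14 were far apart, and its call was lost without wildtype replicate 1 (-0.34) and without hypomorph replicate 1 (-0.55), and also with no filter, no intensity trend or a robust prior (limma, adjusted p = 0.171, 0.17 and 0.14).

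**Figure D4:**
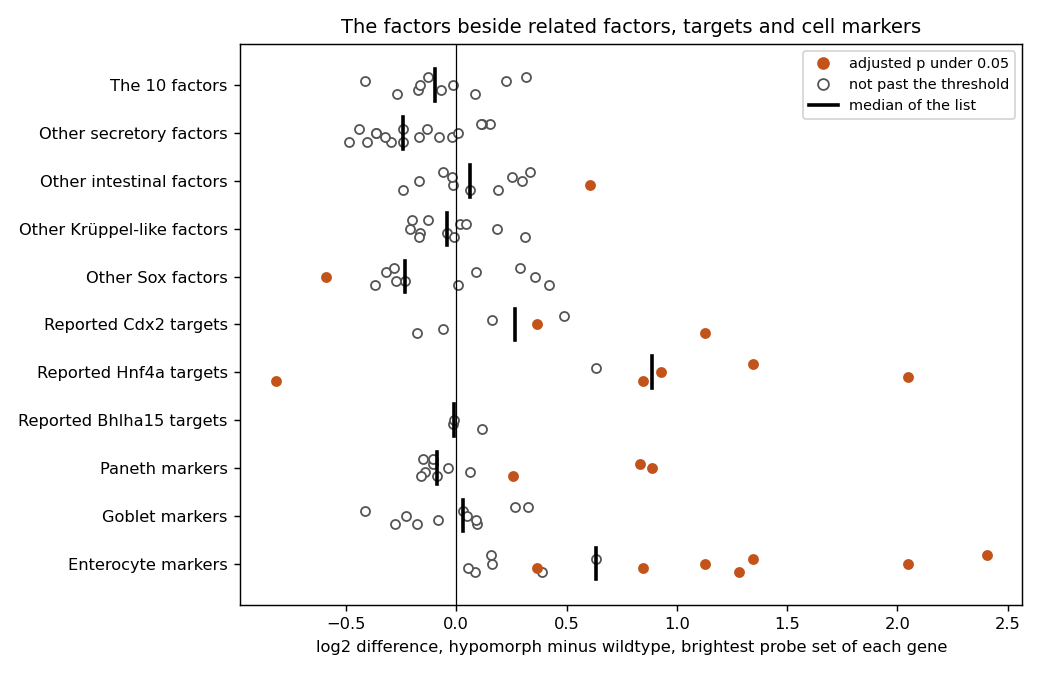
Log2 difference, hypomorph minus wildtype (horizontal axis), of the brightest probe set of each tested gene in the 10 factors and in 10 lists (rows), with filled points for an adjusted p under 0.05 in limma and a bar at each median. The factors show no filled point, while among the rows drawn filled points gather in those of Hnf4a targets and enterocyte markers. Apoa1, Apoa4, Apoc3 and Mttp are points in both of these rows. The fat cell, fibroblast and muscle, immune, enteroendocrine and stem cell lists, which also held called genes, are not drawn.

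Products of the lineages were set beside the factors. Of 11 tested Paneth markers, 3 rose and none fell, where 2.53% of all genes rose and 1.70% fell. These were the lectins Reg3a (0.89) and Reg3g (0.26) and the pentraxin gene Mptx1 (0.83), and all 3 calls were lost without the intensity trend (limma, adjusted p from 0.059 to 0.272). Reg3a measured 99.2 and 92.7 in hypomorph and 26.9 and 49.4 in wildtype, and was bright enough to test only through its hypomorph arrays. The stricter filter left Reg3a untested. With any 1 array left out only Mptx1 kept its call. Reg3a was not called when replicate 1 of either group was absent (0.85 and 0.65), nor Reg3g when hypomorph replicate 2 or either wildtype array was absent (0.19 to 0.27), and both were lost with no filter. The summed intensity of the 12 Paneth markers with a probe set of 1 symbol, of 21 listed, was 74340 and 78890 in hypomorph and 76310 and 77720 in wildtype. The lysozyme gene Lyz1 measured 14561 and 15097 in hypomorph against 15481 and 16021 in wildtype, a strong signal in both groups. Defa3, an alpha-defensin gene among these 12, lay between 1.36 and 3.84. The other listed alpha-defensins had no probe set of 1 symbol and were not analysed, so their level is not given here. Markers of other cells were bright as well. Olfm4 of stem cells measured 8670 and 8442 in hypomorph against 8984 and 8687 in wildtype. Fabp6 of enterocytes measured 9919 and 10555 against 9769 and 9954. The purity of the samples was not tested. By the brightest probe set, none of 11 goblet markers passed, Spdef included. Zg16, a secreted lectin of goblet cells, was at 0.09 on its brightest probe set, but 2 dimmer ones rose, by 0.72 and 0.39 (limma, adjusted p = 0.00661 and 0.0133). Agr2, a disulphide isomerase needed for mucus, was at -0.23 and Tpsg1, a tryptase, at 0.32 (limma, adjusted p = 0.0693 and 0.112), and the median of the goblet list was 0.03. Muc2, the main intestinal mucin, measured 6241 and 6470 in hypomorph and 7062 and 7327 in wildtype. Of the 5 pancreatic acinar markers with a probe set of 1 symbol none was bright enough to test.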

How the data were processed

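Total RNA of laser-captured cells was extracted and amplified with kits, labelled with biotin and hybridised, per the labels' protocols. The authors deposited 1 linear intensity per probe set and array. The scaling, the background correction and the probe summary are not stated in the sources used here. Genes were named from the platform annotation, and 64 control probe sets were left out. No further normalisation was done, and 32 was added before taking log2. Probe sets whose mean log2 value lay under the median (6.32, an intensity of about 47.7) were left out. The rest were fitted in limma 3.58.1 (R 4.3.3) with group as the only term and eBayes with an intensity trend, on 2 residual and 7.81 prior degrees of freedom. P-values are two-sided and Benjamini-Hochberg adjusted over 22519 probe sets. Intervals are 95% and unadjusted. The fit was tested on simulated data. Precision is limited by the number of arrays. For counts of genes the brightest probe set stood for its gene.

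The members and lists were chosen with earlier results of these data known. Every member is named. Each list gives up to 4 genes, called ones by size and otherwise those with the smallest p, and other genes are named for context after their values were seen. List genes without a probe set of 1 symbol were not analysed here. Alternatives were quantile normalisation, median centring, added constants of 1 and 128, no filter, a stricter filter (70th percentile), a fit without the trend, a robust prior, a replicate block, averaging the probe sets of each gene, and leaving out every array in turn, where the lone array is taken to vary as the other group does. Promoter sequences are from RefSeq (GRCm38.p6). The files name no build.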

Additional observations from a re-analysis of the deposited data

How the results depend on the processing

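Of 189 recomputed differences of the 14 tested probe sets, 181 kept their direction and stayed on the same side of the threshold, 3 changed sign and 5 passed the threshold. Gfi1 ranged from -0.0686 to 0.041 with an array left out and turned sign without wildtype replicate 2. When the probe sets of each gene were averaged, Hnf4a was at 0.0253 and Klf5 at 0.0064, since probe sets of opposite sign were joined. Outside the replicate block no setting brought a factor past the threshold (lowest adjusted p = 0.0581, Bhlha15 without hypomorph replicate 1). With each array left out in turn, 0 probe sets were called higher and 0 lower. With the replicate block 3 were called higher (Bhlha15, Klf4 1417395_at, Hnf4a 1421983_s_at) and 2 lower (Spdef, Hnf4a 1427001_s_at). That setting called 3206 probe sets in all, against 836 without it. Deviations of same-numbered arrays correlated at 0.264 over probe sets, but the labels tie the numbers to no shared animal or batch, and 1 correlation from 2 pairs does not show pairing.

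Over the 7 lists of related genes 7 rose and 2 fell. The falls numbered 1 with no filter, with no intensity trend and with a robust prior, and 7 with the replicate block, and lay between 1 and 4 with an array left out. The rises lay between 5 and 10 over all settings. The stricter filter left Sox9 and Hnf4a 1421983_s_at untested, and averaging probe sets left Sox9 untested. Sox9 lay close to the filter level, and its interval spans both directions.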

Other observations

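The gene Hnf4aos, annotated as a noncoding RNA beside Hnf4a, was read by 1 probe set that was too dim to test. It measured 50.0 and 56.2 in hypomorph and at most 32.4 in wildtype, and it is named after its values were seen.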
